A study of Mus musculus with 4 samples.

Results

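Ephrins are the membrane-bound ligands of the Eph receptor tyrosine kinases, and the 8 ephrin ligand genes Efna1, Efna2, Efna3, Efna4, Efna5, Efnb1, Efnb2 and Efnb3 were followed here in cortex of wild-type and Pax6 sey/sey mouse embryos. They were taken by gene name from a deposited table of 22770 genes: 5 encode ephrin A ligands and 3 encode ephrin B ligands. Each member had exactly 1 row, and all 8 passed the filter on low values, which left 15399 genes for testing. The values are FPKM, the fragments mapped to a gene, scaled for library size and for how long the exons are, so levels of different genes can be compared per length.

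The study sequenced RNA from dissected cortex at embryonic day 16.5 in 4 libraries. The 2 control libraries came from wild-type littermates and the 2 mutant libraries from Pax6 sey/sey embryos, which carry the small eye allele on both copies of the gene. Both genotypes were on a mixed background of C57BL/6J, 129S6 and CD1, and no treatment or transgene is named. The labels do not say whether a library is 1 embryo or a pool, so the p-values measure the spread between these libraries, which may be technical.

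Ephrin A ligands are held on the cell surface by a lipid anchor and bind mainly EphA receptors. Ephrin B ligands span the membrane, bind mainly EphB receptors and carry a short cytoplasmic tail. Contact between cells starts signals in both directions, forward into the receptor cell and reverse into the ephrin cell. In the developing forebrain the system is known for repelling growing axons, mapping thalamic axons onto cortex, and keeping cell populations apart.

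Pax6 RNA was 28.8 and 27.02 FPKM in wild-type cortex and 101 and 120.3 FPKM in mutant cortex. It was called higher in the mutants, with a log2 fold change of 1.96 (limma adjusted p = 0.00466). The sey allele changes a single base and the transcript is still made, so this level was not used to check the genotype labels. Mutant library 1 was female, with Xist at 350.1 FPKM against 0.0788 to 0.224 in the other 3 libraries. Cortical projection neuron markers (8 genes) summed to 1202 and 1270.5 FPKM in wild-type cortex and to 781 and 721 FPKM in mutant cortex. The 4 choroid plexus markers, 3 of them under the filter on low values, were near the floor. They summed to 1.81 and 0.898 FPKM in wild-type cortex and to 0.182 and 0.491 FPKM in mutant cortex. Thalamic markers (5 genes) summed to 4.64 and 4.13 FPKM in wild-type cortex and to 10.7 and 8.11 FPKM in mutant cortex. From wild-type to mutant mean, Prox1 went from 1.87 to 5.84, Lhx9 from 0.273 to 1.43 and Rora from 0.661 to 0.894 FPKM. Tcf7l2 went from 1.58 to 1.16 FPKM, and Gbx2 was above 0 only in mutant library 1, at 0.174 FPKM. Mutant library 1 stood apart in 8 meningeal fibroblast markers, at 30.5 FPKM against 3.52 to 7.67 in the other 3 libraries. In limma, 536 of 15399 tested genes passed an adjusted p under 0.05, which is 3.48% (2.02% higher and 1.46% lower in the mutants).

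The members differ in their start regions, and 3 are printed as examples: Efna3, the ephrin gene nearest to the threshold, Efna4, its neighbour on chromosome 3, and Efnb2, the most abundant member. Each is the 250 bases before the RefSeq start in GRCm38.p6, read 5′ to 3′ on the minus strand. Capitals mark matches to GGGCGG, the GC box of Sp and KLF factors, or to CAGATG, an E-box form bound by proneural factors, on either strand.
Efna3 (chr3:89322940-89323189): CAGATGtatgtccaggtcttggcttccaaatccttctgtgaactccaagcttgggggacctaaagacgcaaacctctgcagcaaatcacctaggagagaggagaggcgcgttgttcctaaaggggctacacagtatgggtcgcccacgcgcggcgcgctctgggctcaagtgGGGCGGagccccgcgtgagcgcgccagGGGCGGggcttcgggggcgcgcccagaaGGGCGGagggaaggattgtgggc
Efna4 (chr3:89338029-89338278): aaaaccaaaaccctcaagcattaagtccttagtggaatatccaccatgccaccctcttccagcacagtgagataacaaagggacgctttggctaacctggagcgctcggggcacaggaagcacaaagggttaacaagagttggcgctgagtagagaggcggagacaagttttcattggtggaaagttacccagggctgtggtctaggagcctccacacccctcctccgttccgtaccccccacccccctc
Efnb2 (chr8:8661243-8661492): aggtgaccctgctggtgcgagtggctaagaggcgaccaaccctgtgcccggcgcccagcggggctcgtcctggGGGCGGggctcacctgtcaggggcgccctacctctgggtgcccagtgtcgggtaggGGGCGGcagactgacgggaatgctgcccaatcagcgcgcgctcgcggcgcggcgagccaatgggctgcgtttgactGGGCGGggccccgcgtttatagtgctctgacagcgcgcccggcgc

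The Efna3 window held 3 GC boxes and 1 CAGATG, the Efnb2 window 3 GC boxes, and the Efna4 window neither motif. No match overlapped another. TAATTA, a homeodomain core, and TTCACGC, the core of the Pax6 paired-domain motif, were searched too and had no match in these 3 windows. Among all 32851 promoter windows of 250 bases in the RefSeq table, 32.7% held GGGCGG, 14.4% CAGATG, 4.84% TAATTA and 1.03% TTCACGC. CG dinucleotides numbered 19 for Efna3, 7 for Efna4 and 27 for Efnb2, against a median of 6 over all windows. The GENCODE start of Efna3 lies 26 bases upstream of the RefSeq start, so the end of its window is transcribed in that annotation. RefSeq windows were matched for 7 of the 8 members, all but Efnb3. Of the matched windows not printed, that of Efna1 held 1 TAATTA, and none held CAGATG or TTCACGC. GC boxes numbered 1 for Efna1, 2 for Efna2 and 4 for Efna5, and the Efnb1 window had none.

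Ephrin B RNA made up most of the family's RNA in every library. Of the summed ephrin FPKM, the 3 ephrin B genes took 75.7% and 74.2% in the wild types and 77.7% and 79.2% in the mutants. Efnb2 alone took 41.6% to 45.0%. The order of levels in wild types was Efnb2, Efnb3, Efnb1, Efna3, Efna2, Efna4, Efna5 and Efna1, from a mean of 82.1 FPKM down to 1.005 FPKM. Neighbours in that order did not overlap between libraries, except Efnb3 with Efnb1 and Efna3 with Efna2. In mutants Efna2 stood above Efna3 without overlap, and the rest of the order was the same, with Efnb3 and Efnb1 again overlapping.

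**Figure D1:**
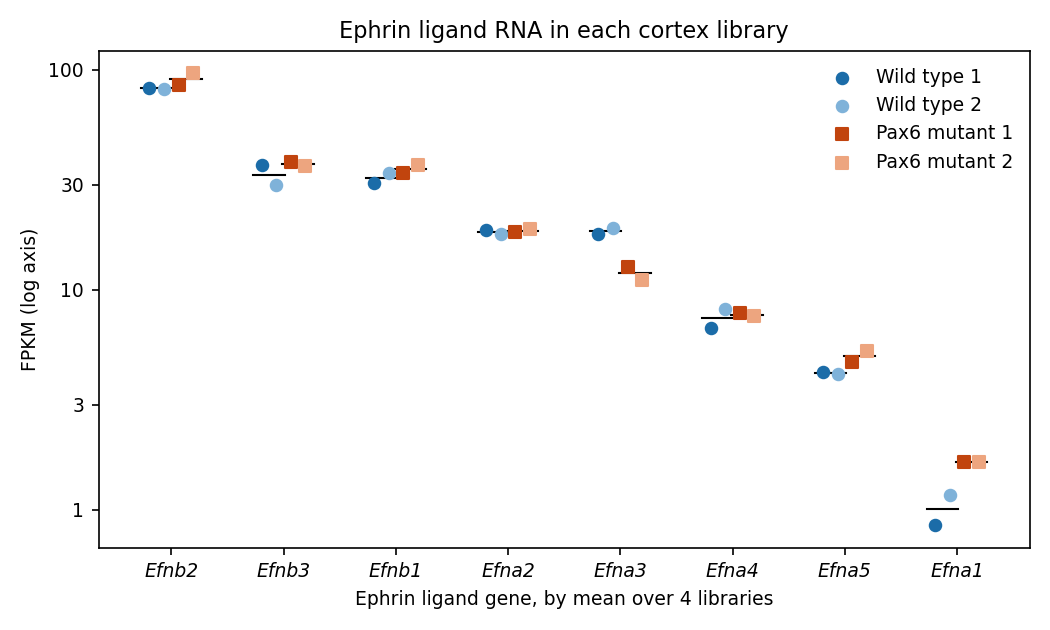
FPKM on a log axis for the 8 ephrin ligand genes, ordered by mean level, in each of the 4 libraries (circles wild type, squares Pax6 mutant), and black lines showing the mean of each genotype (n = 2). Efnb2 lies highest at 81.5 to 96.1 FPKM and Efna1 lowest at 0.849 to 1.65, and only Efna3 has mutant points clearly below the wild types.

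No ephrin ligand gene passed an adjusted p under 0.05 in limma: the count was 0 of 8, against 3.48% of all tested genes. With 2 libraries a group, that count does not show that the genes were unchanged. At an unadjusted p under 0.05 the count was 1 of 8, Efna3, against 19.5% of all genes. Groups did not overlap for 4 of 8 members, 3 higher and 1 lower in the mutants, near the 51.6% of all tested genes for which this held (25.8% in each direction). Fold changes were above 0 for 7 of 8 members and for 50.1% of all tested genes. The median log2 fold change of the 8 genes was 0.13, mutant minus wild type on the log2(FPKM + 0.5) scale, and 0.00062 over all tested genes. The median size of the change without its sign was 0.15 for the members and 0.17 for all tested genes. In the authors' deposited table the smallest p-value among the 8 was 0.281, for Efna3, and 4 members had a p-value of 1.

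Efnb2, the ligand of Ephb4 and a known marker of arterial endothelium that neural cells also express, was the most abundant ephrin. It measured 82.8 and 81.5 FPKM in wild-type cortex and 84.7 and 96.1 FPKM in mutant cortex. Both mutants lay above both wild types, but most of the gap came from mutant library 2. The log2 fold change was 0.13 (SE 0.08, limma adjusted p = 0.426), with a 95% interval of 0.954 to 1.26 on the fold scale. Without mutant library 2 it was 0.04. The gene lies on chromosome 8 from 8617434 to 8661242 in GRCm38.

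Efnb3, whose product at the midline repels corticospinal axons, measured 36.6 and 29.8 FPKM in wild-type cortex and 37.8 and 36.3 FPKM in mutant cortex. Wild-type library 2 stood below the other 3, and the groups overlapped. The difference was 0.16 on the log2 scale (SE 0.11, limma adjusted p = 0.506; chromosome 11, 69554092 to 69560205), with fold limits of 0.913 and 1.37. Without wild-type library 1 it was 0.31, and without wild-type library 2 it was 0.02.

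Efnb1, an X-linked ligand of cortical progenitors, measured 30.6 and 34.0 FPKM in wild-type cortex and 33.8 and 36.7 FPKM in mutant cortex. The groups overlapped, and the female library, mutant library 1, lay within the range of the 3 libraries with low Xist. Mutants stood 0.12 higher on the log2 scale (SE 0.09, limma adjusted p = 0.507; X chromosome, 99136130 to 99148991), with fold limits of 0.932 and 1.28. Without wild-type library 1, wild-type library 2 or mutant library 2 the value was 0.05, 0.20 or 0.07.

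Efna3, an ephrin A ligand also known from astrocytes that contact Epha4-bearing dendritic spines, had the smallest p of the family. It measured 17.8 and 19.1 FPKM in wild-type cortex and 12.7 and 11.1 FPKM in mutant cortex. Both mutants lay below both wild types, and the mutant mean was 0.643 of the wild-type mean. The log2 fold change was -0.62 (SE 0.11, limma adjusted p = 0.0587, fold limits 0.536 and 0.791), just outside the threshold. An exact permutation test over the libraries (two-sided) reached p = 0.333, which is as small as 2 against 2 libraries can give. Over the 12 alternative settings the log2 fold change stayed between -0.71 and -0.53 and the limma adjusted p between 0.0530 and 0.292.

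Efna3 lies on chromosome 3 from 89313899 to 89322965. The antisense gene Gm15998 shares 344 exon bases with it and was at 0.435 to 0.624 FPKM. The authors' locus for Efna3 was shared by 2 genes. Strand-specific counting is not stated, so the value of Efna3 is uncertain.

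Efna2, a ligand graded across the visual midbrain and known from retinal axon mapping, served as a level of the same size. It measured 18.7 and 17.9 FPKM in wild-type cortex and 18.2 and 18.8 FPKM in mutant cortex, and the groups overlapped. Mutants differed from wild types by 0.02 on the log2 scale (SE 0.08, limma adjusted p = 0.937, fold limits 0.871 and 1.17; chromosome 10, 80179482 to 80190010). Its sign turned without wild-type library 2 or without mutant library 2, at -0.01 in both cases. The ratio of Efna3 to Efna2 within a library was 0.957 and 1.07 in the wild types and 0.698 and 0.589 in the mutants. Scaling between libraries does not enter that ratio, which was not among the planned results.

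Efna5, a graded ligand in cortex and midbrain that takes part in thalamocortical mapping, measured 4.23 and 4.14 FPKM in wild-type cortex and 4.70 and 5.27 FPKM in mutant cortex. Both mutants lay above both wild types. The log2 fold change was 0.22 (SE 0.15, limma adjusted p = 0.475, fold limits 0.898 and 1.52; chromosome 17, 62604184 to 62881317).

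Efna4, another lipid-anchored ligand, measured 6.66 and 8.12 FPKM in wild-type cortex and 7.79 and 7.58 FPKM in mutant cortex, and both mutants lay between the wild types. The difference was 0.06 on the log2 scale (SE 0.14, limma adjusted p = 0.861, fold limits 0.808 and 1.34; chromosome 3, 89333390 to 89338028), and it turned to -0.07 without wild-type library 1. The antisense gene 4731419I09Rik shares 168 of its exon bases, and the authors' locus for Efna4 was shared by 3 genes, so its value is uncertain too.

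Efna1, a ligand of Epha2 that is made by endothelium among other cells, was the lowest member. It measured 0.849 and 1.16 FPKM in wild-type cortex and 1.65 FPKM in both mutant libraries. Both mutants lay above both wild types, and the mutant mean was 1.64 times the wild-type mean. The log2 fold change was 0.52 (SE 0.23, limma adjusted p = 0.297; chromosome 3, 89271733 to 89281142), with the widest interval of the family, 0.958 to 2.16 on the fold scale. Judged by the value of about 1 fragment in each library, it rested on roughly 14 to 32 fragments a library, for which counting error alone is about 26.7% at the lowest.

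Markers of vessels and meninges are given beside Efna1 and Efnb2, which such cells can express. In the order wild-type library 1, wild-type library 2, mutant library 1 and mutant library 2, the summed level of 10 endothelial genes was 64.6, 65.4, 103 and 78.3 FPKM. The 6 arterial genes summed to 7.85, 9.49, 12.3 and 11.1 FPKM in that order, 8 pericyte and mural genes to 38.0, 34.5, 48.0 and 41.3 FPKM, and 8 meningeal fibroblast genes to 5.23, 3.52, 30.5 and 7.67 FPKM. All 4 sums were higher in both mutants (25.8% of all tested genes were) and highest in mutant library 1. Efna1 was 1.65 FPKM in both mutants, and Efnb2 was 84.7 FPKM in mutant library 1 and 96.1 FPKM in mutant library 2. In limma 0 genes of these lists were called, against 3.48% of all tested genes.

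Fold changes were above 0 for 10 of 10 endothelial, 4 of 5 arterial, 5 of 6 pericyte and mural and 6 of 6 meningeal genes that passed the filter, against 50.1% of all tested genes. An unadjusted p under 0.05 was reached by 4, 1, 1 and 4 of them, against 19.5% of all genes. No marker of these lists was at 0 in all libraries. Without mutant library 1 the log2 fold change was 0.52 for Efna1 and 0.22 for Efnb2. The part of these cells in the Efna1 and Efnb2 values was not tested.

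Compared as classes, ephrin A and ephrin B RNA lay on opposite sides of the wild-type level when summed. The ephrin A sum was 48.2 and 50.5 FPKM in wild-type cortex and 45.0 and 44.4 FPKM in mutant cortex, a ratio of means of 0.906. The ephrin B sum was 150.1 and 145 FPKM in wild-type cortex and 156 and 169 FPKM in mutant cortex, a ratio of 1.10. Neither sum overlapped between genotypes, but neither did 51.6% of all tested genes. Efna3 alone set the direction of the ephrin A sum. Without it, in a calculation added after the values were seen, the other 4 ephrin A genes summed to 30.4 and 31.3 FPKM in the wild types and to 32.3 and 33.3 FPKM in the mutants, a ratio of 1.06.

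The ratio of ephrin B to ephrin A RNA was 3.11 and 2.88 in the wild types and 3.48 and 3.80 in the mutants. Gene by gene the classes were close: the median log2 fold change was 0.06 over the 5 ephrin A genes and 0.13 over the 3 ephrin B genes. The difference of these medians, -0.08, turned positive without wild-type library 2 (0.07) or without mutant library 2 (0.01). The ephrin B genes ranged from 0.12 to 0.16 and the ephrin A genes from -0.62 to 0.52. No p is given for a class, since genes of a class are not replicates.

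**Figure D2:**
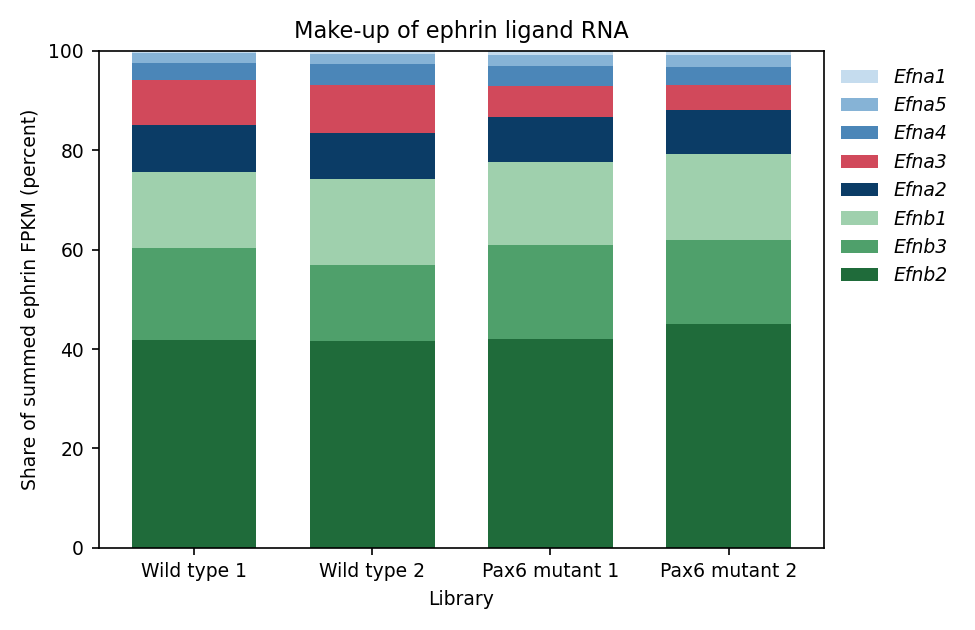
Share in percent of the summed ephrin FPKM taken by each of the 8 genes (stacked, ephrin B in green, ephrin A in blue with Efna3 in red) in each library. Ephrin B genes fill 74.2% to 79.2% of every bar, and the Efna3 part is 8.998% and 9.77% in the wild types and 6.30% and 5.20% in the mutants.

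Efna1, Efna3 and Efna4 lie next to each other on the minus strand of chromosome 3, within 66.3 kb (89271733 to 89338028), but their differences pointed apart: 0.52, -0.62 and 0.06. Within each library the ratio of Efna3 to Efna4 was 2.68 and 2.36 in the wild types and 1.63 and 1.46 in the mutants. That ratio was not planned either. Among the 23 other tested genes within 100 kb of the cluster, 9 fold changes were above 0 and 14 below, with a median of -0.07 and a range of -0.54 to 0.82. The range was chosen after the values were seen. Only Cks1b, which encodes a subunit of cell cycle kinases, passed the threshold there, higher in the mutants. The transporter gene Slc50a1, beside Efna1, and the metalloprotease gene Adam15, beside Efna4, had log2 fold changes of 0.09 and -0.08 (limma adjusted p = 0.814 and 0.762).

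**Figure D3:**
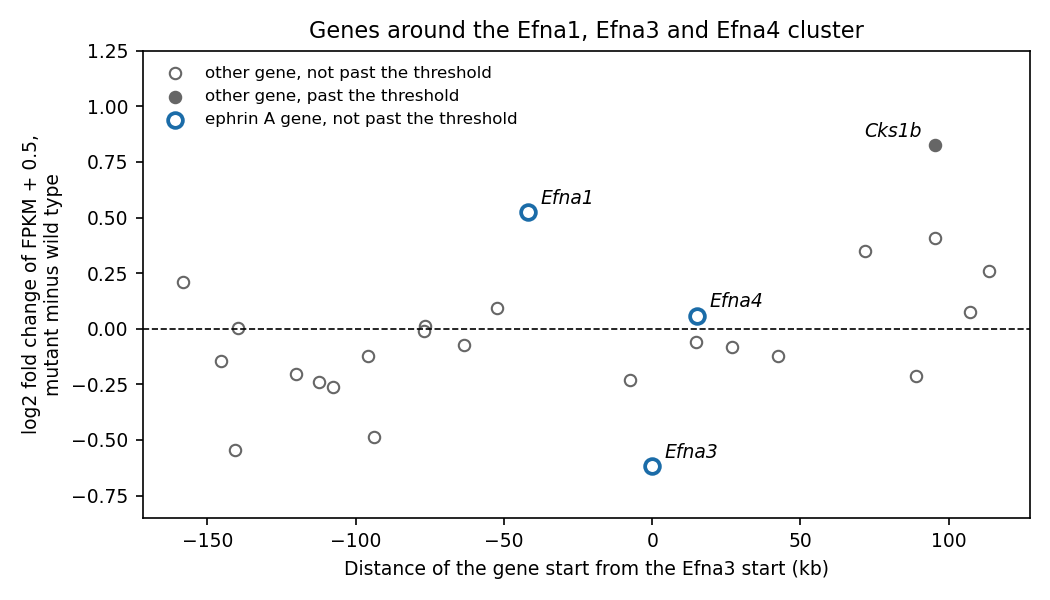
Log2 fold change of FPKM + 0.5, mutant minus wild type, of each tested gene against the distance in kb of its start from the Efna3 start. Ephrin A genes are blue rings and other genes grey (filled where past the threshold): Efna3 lies lowest at -0.62, Efna1 at 0.52 and Efna4 at 0.06, and of the 23 other genes only Cks1b is filled.

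The receptors of these ligands held 1 called gene. Of 14 Eph receptor genes in the table, 12 passed the filter, 0 were higher and 1 was lower (3.48% of all genes were called), and the median log2 fold change of the 12 was -0.23. Epha3, a receptor of ephrin A ligands, fell from 44.2 and 36.2 FPKM in the wild types to 19.2 and 18.6 FPKM in the mutants. Its log2 fold change was -1.06 (SE 0.11, limma adjusted p = 0.0238). The call was lost without any 1 of the 4 libraries (adjusted p = 0.102 to 0.154), without the filter (0.0677) and without the mean-variance trend (0.0802), with the direction kept. EphA receptors summed to 182 and 155 FPKM in wild-type cortex and 139 and 147 FPKM in mutant cortex, and EphB receptors to 71.3 and 75.2 against 65.3 and 53.4 FPKM. Neither of these sums overlapped between genotypes, which also held for 51.6% of all tested genes. Without Epha3, in a calculation added after the values were seen, the other 8 EphA genes summed to 138 and 119 FPKM in wild-type cortex. In mutant cortex they summed to 120.2 and 128 FPKM, which overlaps. Of the 12 receptors, 3 fold changes were above 0. Groups did not overlap for 5 lower and 2 higher receptors (25.8% of all tested genes in each direction). Epha5, Epha7 and Ephb6, picked after their values were seen, were lower in both mutants. Their log2 fold changes were -0.27, -0.42 and -0.73 (limma adjusted p = 0.333, 0.0927 and 0.0955). Epha4, a receptor that binds both ephrin classes, pointed the other way, at 38.5 and 39.1 FPKM in wild-type cortex and 49.4 and 55.4 FPKM in mutant cortex (log2 fold change 0.43, limma adjusted p = 0.0661), and it too was singled out after its value was seen.

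Genes that act with ephrins and Ephs inside the cell, or cut them from its surface, held 1 called gene as well. Of 32 listed genes all were tested, 1 was higher (2.02% of all genes) and 0 were lower in limma, 11 of 32 had an unadjusted p under 0.05 (against 19.5% of all genes), and the median log2 fold change was 0.05. The called gene was Vav2, whose product is recruited by activated Eph receptors. It rose from 24.4 and 22.3 FPKM to 38.3 and 42.5 FPKM, a rise of 0.78 on the log2 scale (SE 0.09, limma adjusted p = 0.0278). Without any 1 library the adjusted p was 0.0869 to 0.196, without the filter 0.0677 and without the trend 0.0880. Adam10, the protease that sheds ephrins, had a log2 fold change of 0.05 (limma adjusted p = 0.732) and was singled out after its value was seen.

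**Figure D4:**
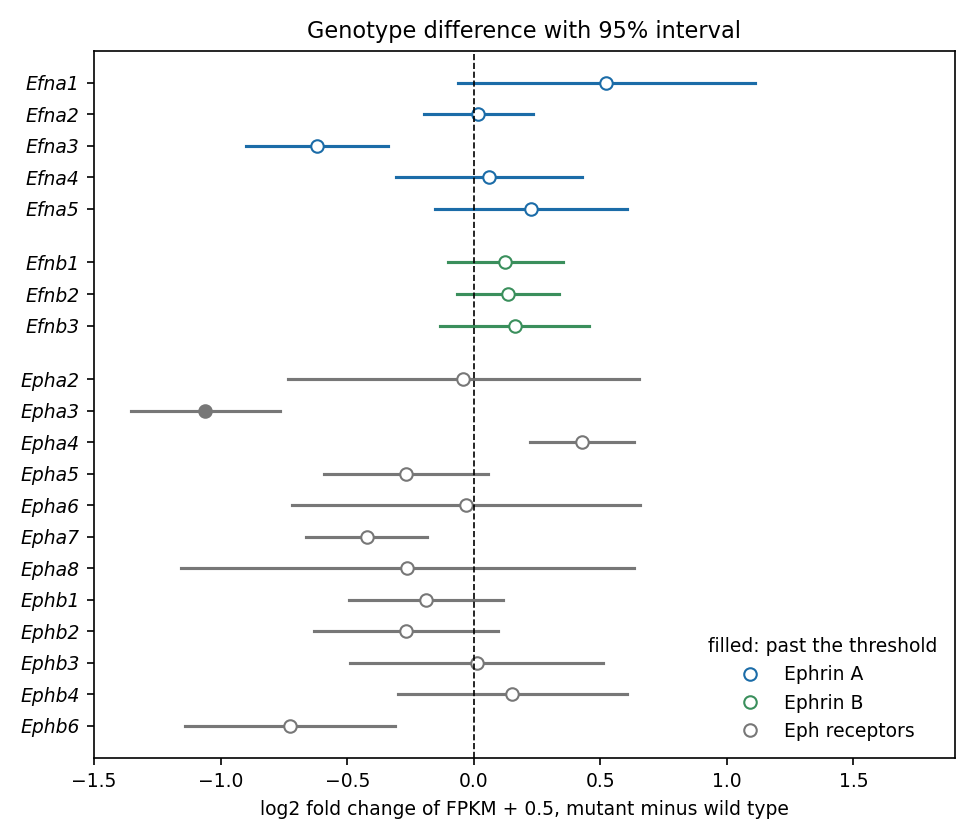
Log2 fold change of FPKM + 0.5, mutant minus wild type, with its 95% interval from limma, for the 5 ephrin A genes, the 3 ephrin B genes and the 12 tested Eph receptor genes (filled where the adjusted p is under 0.05). All 8 ephrin points are open, and only the Efna3 interval among them, -0.90 to -0.34, does not reach 0.

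The 3 genes whose pattern over the 4 libraries was closest to that of Efna3 were Mmd2, Fgfr1 and Fam49a. They were found among 10190 other tested genes with a mean of at least 5 FPKM, by Euclidean distance between log2(FPKM + 0.5) profiles centred on each gene's mean. Distances were 0.0321, 0.0370 and 0.0469, and log2 fold changes -0.63, -0.61 and -0.65. With 4 libraries such closeness mostly repeats the genotype difference.

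Marker sums of cortical projection neurons, intermediate progenitors and ventral cells did not overlap between genotypes (51.6% of all tested genes did not). In the order wild-type library 1, wild-type library 2, mutant library 1 and mutant library 2, the 8 cortical projection neuron genes summed to 1202, 1270.5, 781 and 721 FPKM. In limma 4 of the 8 were called lower (1.46% of all tested genes were). Without overlap, 6 of the 8 were lower and 1, Bcl11b, was higher in the mutants (25.8% of all genes in each direction). Bcl11b was at 29.5, 31.5, 36.6 and 42.9 FPKM (limma adjusted p = 0.141), and Fezf2 at 45.6, 48.3, 50.3 and 44.2 FPKM. The 5 intermediate progenitor genes summed to 105, 128, 31.0 and 24.1 FPKM. Of the 4 that passed the filter, 3 were called lower (1.46% of all tested genes were) and all 4 fold changes were below 0. The 10 ventral progenitor and interneuron genes summed to 135, 105, 739 and 853 FPKM. Of these 9 were called higher (2.02% of all tested genes were), and all 10 were higher without overlap. The 8 radial glia genes summed to 925, 767, 798 and 803 FPKM, of which Fabp7 alone made 719, 540, 526 and 525 FPKM. Of the 8, 1 was called higher (2.02% of all tested genes were) and 0 lower. The called gene was Sox2, at 25.8, 22.9, 78.5 and 93.1 FPKM. Slc1a3 was lower in both mutants, at 34.5, 31.2, 23.8 and 19.5 FPKM (limma adjusted p = 0.0786). In the same order Efna3 was 17.8, 19.1, 12.7 and 11.1 FPKM and the ephrin family total 198, 196, 201 and 213 FPKM. The part of these cells in the Efna3 value was not tested, and in bulk tissue fewer cells of a type and less RNA per cell cannot be told apart.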

How the data were processed

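RNA of 4 embryonic cortex libraries was analysed from 1 table. Per the file headers, the authors deposited an FPKM value per gene and library, a group FPKM per genotype, a fold given as a ratio (mutants over wild types) and a p-value whose test and adjustment are not stated. Cufflinks 2.2.1, TopHat2 2.0.9, edgeR and the builds mm10 and GRCm38.p4 are named, with no roles, per the submitters' processing notes. Coordinates are from GENCODE M21 on GRCm38, counted from 1. FPKM keeps no fragment totals. The most frequent low value, taken as about 1 fragment, was 0.0466 to 0.0756 FPKM for a gene with 2 kb of exon, and column totals were 579698 to 593256 FPKM.

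Genes reaching 0.5 FPKM in no fewer than 2 libraries were tested for genotype on log2(FPKM + 0.5) with limma 3.58.1 in R 4.3.3 (lmFit, eBayes with trend, two-sided) and Benjamini-Hochberg adjustment over all 15399 genes, threshold 0.05. Fold changes on this scale understate the change of low genes. Values are given per library, so n = 2 per group. The script was tested on simulated data with 2 against 2 libraries. It recovered 10% of 1.5-fold, 30% of 2-fold, 68% of 4-fold and 62% of 8-fold changes, and 4 of its 89 calls were false. Members, lists and tests were chosen with earlier results of these data known. Named genes are all members, called receptors and partners, and for the ephrin gene with the smallest p the 3 nearest profiles. Alternatives covered pseudocount, filter, scaling, trend, replicate block and each library left out.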

Additional observations from a re-analysis of the deposited data

How the results depend on the processing

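No ephrin ligand gene passed the threshold under any of the 12 alternative settings. Signs changed for Efna2 without wild-type library 2 (-0.012) or mutant library 2 (-0.0084) and for Efna4 without wild-type library 1 (-0.074). With 1 library left out, Efna2 ranged from -0.012 to 0.0457 and Efna4 from -0.074 to 0.193. Efna1, Efna3, Efna5, Efnb1, Efnb2 and Efnb3 kept their sign in all 12. With 1 library left out, where the lone library is assumed to vary like the others, all-gene counts ranged from 7 to 59 in place of 536 (6 to 31 higher, 1 to 28 lower). The medians ranged from 0.0426 to 0.193 for ephrin A, from 0.0674 to 0.183 for ephrin B and from -0.140 to 0.0703 for their difference. The called receptor count was 0 to 0 and the called partner count 0 to 0 in those fits. Without the filter 61 genes were called (40 higher, 21 lower), and without the trend 54 (34 higher, 20 lower), with 0 receptors lower and 0 partners higher in both. Why these counts fell was not tested. Leaving Efna3 out of the ephrin A sum, added after seeing the data, gave a ratio of 1.06 in place of 0.906. With the replicate number as a block 374 genes were called, Epha3 and Vav2 among them (limma adjusted p = 0.0279 and 0.0489), and Efna3 had an adjusted p of 0.0896. Deviations of same-numbered libraries correlated at 0.0492 across genes, and the labels tie no number to a litter. Absolute depth is unknown, and low fragment numbers limit Efna1 most.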
